A study of Drosophila melanogaster with 3 samples.

Results

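The genes described here are those named for proteins of the cytosolic ribosome of Drosophila melanogaster. They were taken as every protein-coding gene on the 6 chromosome arms whose Ensembl symbol starts with RpL (large subunit) or RpS (small subunit). The rule rests on symbols alone, so genes named -like count as members. The rule found 92 of 13945 protein-coding genes, of which 54 were large-subunit and 38 small-subunit genes. Binding of GAGA factor, which the gene Trithorax-like (Trl) encodes, was measured at their promoters by ChIP-seq (chromatin immunoprecipitation followed by sequencing). The material was embryos of both sexes, used whole and aged 0 to 24 h, of the fly strain Trl-MiMIC-GFP, in which an eGFP exon placed in an intron of Trl gives a GFP fusion from that locus. The fusion protein was precipitated with an antibody against GFP in 3 biological replicates, which form 1 group, so no condition was compared and the comparisons are between genes. An embryo collection of this span holds all cell types and stages, and in such bulk material binding in fewer cells cannot be told apart from weaker binding in each cell.

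GAGA factor is a zinc-finger protein that recognises GAGAG repeats, keeps promoters free of nucleosomes and is known for its part at heat-shock and homeotic genes. Ribosomal protein genes are transcribed in nearly every cell, and their products are made in equal amounts for assembly with ribosomal RNA. Their promoters in flies are known for a TCT initiator, a pyrimidine stretch at the start site in place of the usual initiator, for the use of the TBP-related factor Trf2, and for binding of the factors DREF and M1BP. DREF recognises the DNA replication-related element (DRE, TATCGATA) and M1BP recognises core promoter motif 1, searched here by its core GGTCACAC.

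Peaks were the authors' own. The optimal list held 4900 peaks that passed a reproducibility threshold, a pooled list held 30000 peaks, and so did each replicate list. A gene was called when an optimal summit, the authors' point of highest signal in a peak, lay within 500 bp of one of its start sites. Rank 1 is the highest signal of a list, and a percentile is the rank expressed over the 30000 peaks of a replicate list, with 100 strongest and 0 where a gene had no promoter peak. The scale of the signal is not stated and the lists hold no read totals, so the depth is unknown and signal served for ranks only.

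Promoter sequences of 10 members are shown because the results turn on what they hold and lack. They come from the RefSeq reference genome (dm6), run 5′ to 3′ on the strand of the gene, and end 20 bases after the most upstream annotated start site. Capitals mark GAGAG, TATCGATA or GGTCACAC on either strand, and CTTTC or CTTTT (the TCT initiator letters) on the gene's strand within 20 bases of that start site. The first 3 had peaks among the strongest of all members, at ranks 74, 106 and 116, with none of GAGAG, DRE and motif 1. RpL23A (chr3L:1668634-1668854, minus strand), RpL34b (chr3R:9401206-9401426, minus strand) and RpL14 (chr3L:8600880-8601026, plus strand) had their summits 103, 87 and 53 bp before the start site.
RpL23A: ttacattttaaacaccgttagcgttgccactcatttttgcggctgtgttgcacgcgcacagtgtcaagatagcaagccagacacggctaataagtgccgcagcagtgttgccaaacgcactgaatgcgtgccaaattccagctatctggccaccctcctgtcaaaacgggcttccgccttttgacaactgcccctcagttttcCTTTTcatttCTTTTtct
RpL34b: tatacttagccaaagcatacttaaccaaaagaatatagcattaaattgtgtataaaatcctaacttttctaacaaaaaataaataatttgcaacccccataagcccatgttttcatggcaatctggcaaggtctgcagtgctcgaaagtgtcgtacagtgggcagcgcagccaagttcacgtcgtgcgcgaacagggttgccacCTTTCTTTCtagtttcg
RpL14: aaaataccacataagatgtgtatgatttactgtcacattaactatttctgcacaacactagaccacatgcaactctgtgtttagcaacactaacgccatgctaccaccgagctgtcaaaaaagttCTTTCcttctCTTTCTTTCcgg
RpS25 (chr3R:11216267-11216487, minus strand) and RpL28 (chr3L:3222940-3223160, minus strand) ranked 197 and 293 and hold a DRE, with summits 46 and 84 bp before the start site.
RpS25: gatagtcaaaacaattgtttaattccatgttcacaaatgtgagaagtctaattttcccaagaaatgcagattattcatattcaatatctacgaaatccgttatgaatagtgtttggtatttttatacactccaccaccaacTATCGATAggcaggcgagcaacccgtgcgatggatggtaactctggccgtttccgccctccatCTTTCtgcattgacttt
RpL28: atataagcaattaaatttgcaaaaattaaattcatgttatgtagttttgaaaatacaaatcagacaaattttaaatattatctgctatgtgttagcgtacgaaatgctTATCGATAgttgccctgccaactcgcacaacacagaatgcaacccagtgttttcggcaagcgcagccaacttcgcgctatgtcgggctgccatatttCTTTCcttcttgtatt
A paralogue pair follows, RpS5a (chrX:17148244-17148464, minus strand), which ranked 678 and holds GAGAG read as CTCTC on this strand, and RpS5b (chr3R:14901543-14901763, minus strand), which was not called.
RpS5a: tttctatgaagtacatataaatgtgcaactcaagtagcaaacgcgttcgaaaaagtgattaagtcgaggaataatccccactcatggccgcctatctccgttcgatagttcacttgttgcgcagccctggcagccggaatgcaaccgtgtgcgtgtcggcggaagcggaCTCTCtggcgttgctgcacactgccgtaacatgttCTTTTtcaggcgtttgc
RpS5b: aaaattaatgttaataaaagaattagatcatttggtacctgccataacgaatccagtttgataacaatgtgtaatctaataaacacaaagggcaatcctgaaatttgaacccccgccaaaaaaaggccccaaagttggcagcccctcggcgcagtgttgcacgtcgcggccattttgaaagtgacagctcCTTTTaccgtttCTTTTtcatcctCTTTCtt
In the pair RpL10Ab (chr3L:11822651-11822871, plus strand) and RpL10Aa (chr3R:15037166-15037386, plus strand), the former ranked 2246 and holds a DRE and TCT initiator letters, and the latter was not called and holds none of the letters searched.
RpL10Ab: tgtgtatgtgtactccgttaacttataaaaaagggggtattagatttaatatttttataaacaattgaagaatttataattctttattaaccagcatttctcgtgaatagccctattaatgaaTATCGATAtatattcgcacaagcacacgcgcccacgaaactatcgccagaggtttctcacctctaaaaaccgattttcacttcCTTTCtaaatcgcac
RpL10Aa: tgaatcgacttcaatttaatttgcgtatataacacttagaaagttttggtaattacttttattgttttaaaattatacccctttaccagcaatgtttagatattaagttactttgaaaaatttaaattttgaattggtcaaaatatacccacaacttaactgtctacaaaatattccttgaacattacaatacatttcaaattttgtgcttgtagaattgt
RpS3 (chr3R:23358612-23358832, plus strand) has TCT initiator letters and was not called.
RpS3: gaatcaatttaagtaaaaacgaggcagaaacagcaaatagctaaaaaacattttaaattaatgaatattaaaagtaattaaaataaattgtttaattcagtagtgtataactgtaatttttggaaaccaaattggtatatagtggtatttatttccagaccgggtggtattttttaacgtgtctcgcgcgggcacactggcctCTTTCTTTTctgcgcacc

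An optimal summit lay at the promoter of 69 of the 92 genes (75.0%, exact 95% binomial interval 64.9 to 83.4), and the 69 genes had 69 different peaks. Over all protein-coding genes the share was 22.9%. Taking the top 4900 peaks of each replicate on its own, 71, 65 and 69 members had a promoter summit in replicates 1, 2 and 3, or 77.2, 70.7 and 75.0%. The mean was 74.3% ± 3.32 (SD, n = 3), and all genes gave 22.7, 22.6 and 22.5%. Every replicate lay above the level of all genes. A promoter summit in all 3 of these replicate lists was found for 61 members, against 16.5% of all genes, while 8 members had one in 2 replicates, 6 in 1 and 17 in none. In the full pooled list 85 of 92 members had a promoter peak, where 54.4% of all genes had one. The intervals cover counting error only, and neighbouring genes are not independent.

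Other housekeeping gene lists were called less often than the 92 genes in every replicate, with no overlap of the replicate values. Mitochondrial ribosomal protein genes, which build the separate ribosome of the mitochondrion, were called in 34 of 73 cases (46.6%). Translation factor genes were called in 22 of 51 cases (43.1%) and proteasome genes in 10 of 48 (20.8%). In the replicates these lists gave 43.4% ± 1.58, 39.2% ± 3.92 and 24.3% ± 1.20 (SD, n = 3). The proteasome share stood near that of all genes.

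**Figure D1:**
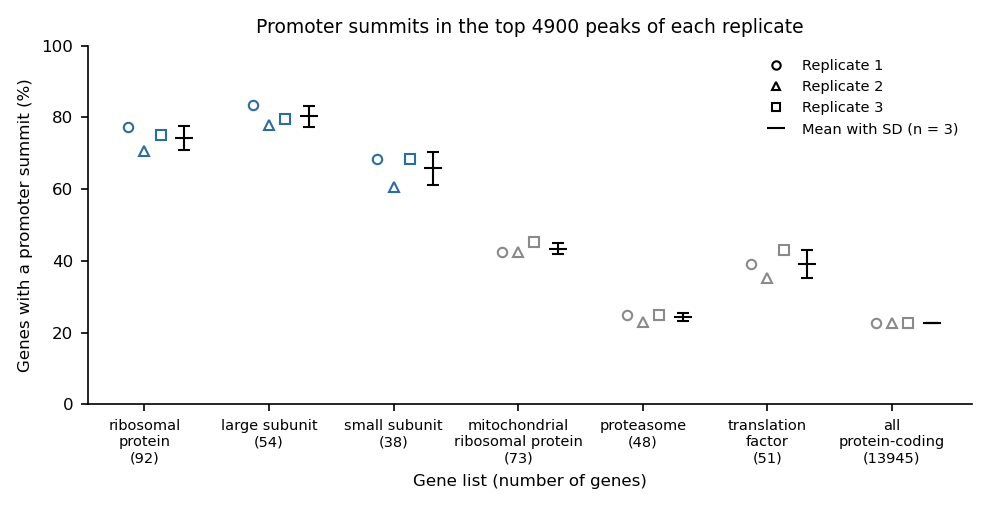
Share of genes (in %, y axis) with a promoter summit among the top 4900 peaks of each replicate, for the ribosomal protein genes, both subunits, 3 other gene lists and all protein-coding genes. Symbols are replicates and the bars the mean with SD (n = 3); the ribosomal protein values of 70.7 to 77.2% sit above those of the mitochondrial, proteasome and translation factor lists and of all genes.

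The called members stood high among bound promoters. Their median rank in the optimal list was 808 (quartiles 403 and 1860), against 2096.5 for the other 3124 called genes. Of the 69 peaks, 22 (31.9%) were among the strongest 490 optimal peaks and 57 (82.6%) stood above the middle of the optimal list, where the other called genes had 13.4% and 56.5%. Within the replicates' own top 4900, the median percentile of ribosomal protein promoter peaks was 97.6, 97.1 and 97.4 in replicates 1, 2 and 3, and that of the other called genes 92.9, 93.0 and 93.0. The difference was 4.39 ± 0.258 percentile points (SD, n = 3), larger than the spread between replicates and of 1 sign in all 3. Over the stronger part of each replicate's top list, above its middle, it was 1.57 points. A two-sided exact sign-flip permutation test gave p = 0.25, the smallest that 3 replicates can give.

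Among large-subunit genes, RpL7 had the strongest promoter peak, ranking 45, 71 and 55 in replicates 1, 2 and 3 (54 in the optimal list). RpL23A, whose protein sits at the exit of the peptide tunnel, ranked 50, 78 and 127, and RpL32, the gene also known as rp49 and used as a reference in expression assays, ranked 104, 77 and 107. These 3 genes stayed within the strongest 127 of 30000 peaks in every replicate, as did RpL34b. RpL34b ranked 99, 115 and 102, RpL41, which encodes a very short peptide, ranked 113, 87 and 162, and RpL14 ranked 87, 110 and 158. RpL24 followed at 170, 213 and 321, and RpLP0, the base of the ribosomal stalk, at 226, 314 and 353. The 8 large-subunit genes thus kept ranks of 353 or better in all replicates, and neighbours in this order overlapped, except RpL14 and RpL24.

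Among small-subunit genes, RpS27, a zinc-finger protein of the subunit, had the strongest peak of all 92 genes, with ranks of 40, 49 and 63 in replicates 1, 2 and 3 and of 48 in the optimal list. RpS20 ranked 179, 182 and 146, and RpS25, known from other eukaryotes for its role in initiation at internal ribosome entry sites, ranked 149, 232 and 237. RpS27 stood apart from the next small-subunit genes in every replicate. RpS21 ranked 270, 451 and 453, RpS16 ranked 375, 655 and 350, and RpS29 ranked 401, 538 and 506. RpS28b ranked 300, 791 and 699, and RpS4 ranked 577, 693 and 477. Neighbours among the last 5 of these overlapped in their replicate ranks.

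At the other end of the called genes, RpS14a had the lowest optimal rank, 4661, with ranks of 3239, 5448 and 4210 in replicates 1, 2 and 3. RpS2 had an optimal rank of 4383 and replicate ranks of 2740, 20726 and 5379, so that it fell within the top 4900 of replicate 1 alone. Replicate 2 held the weakest peak of both genes.

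**Figure D2:**
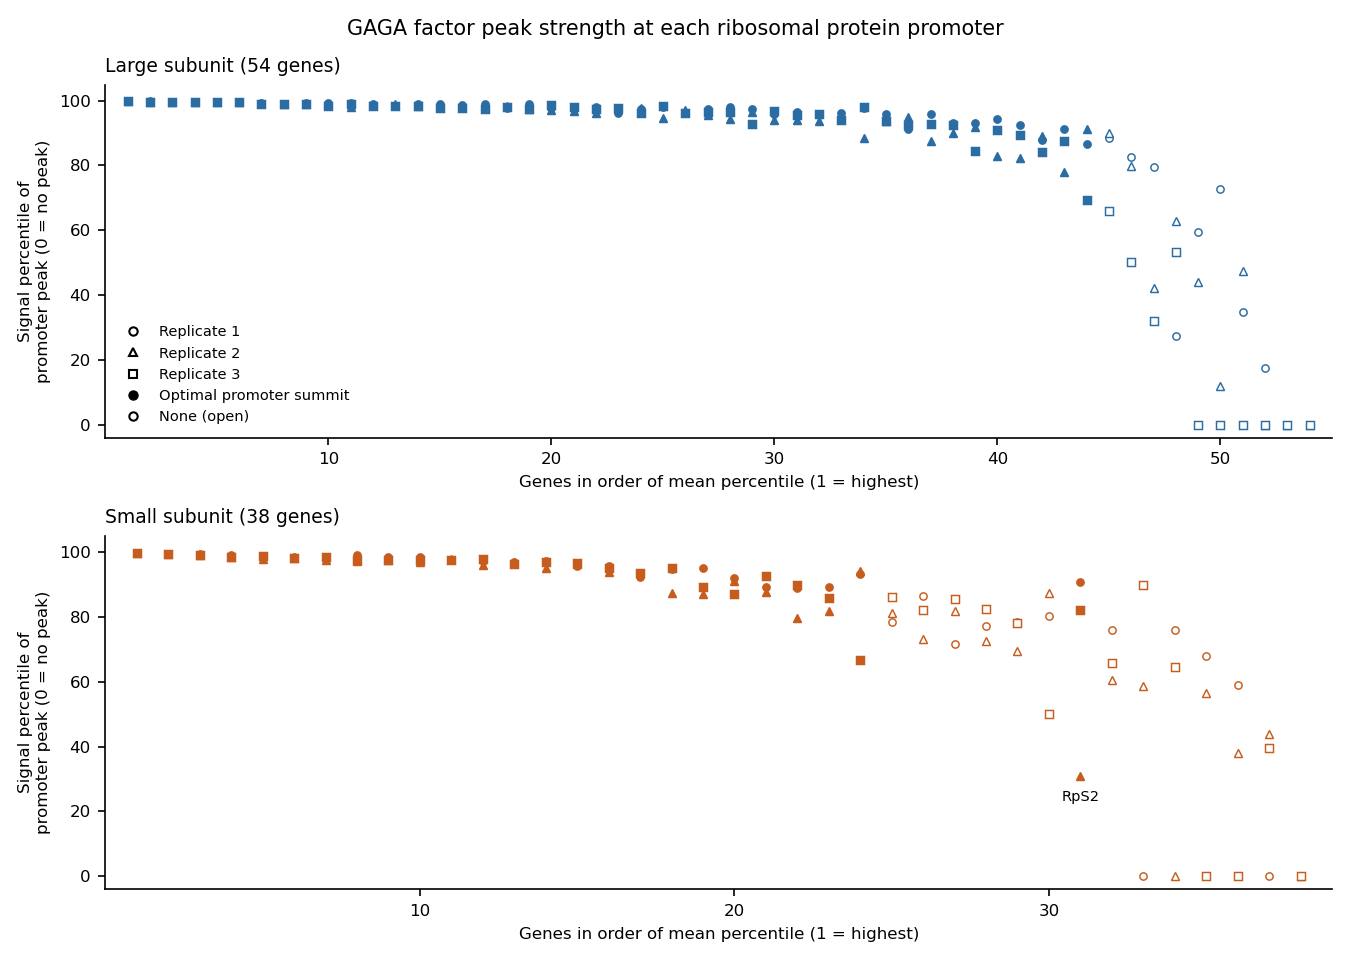
Signal percentile (y axis) of the promoter peak of each of the 92 ribosomal protein genes in replicates 1, 2 and 3, with the genes placed on the x axis in order of their mean over replicates within the 54 large-subunit and 38 small-subunit genes. Filled symbols are genes with an optimal promoter summit, open symbols genes without one, and 0 marks no promoter peak; RpS2, marked in the plot, is a filled gene whose replicates spread widely, from rank 2740 to rank 20726.

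Large-subunit genes were called more often than small-subunit genes. Of 54 large-subunit genes 44 were called (81.5%, exact 95% interval 68.6 to 90.7), and of 38 small-subunit genes 25 (65.8%, 48.6 to 80.4). In replicates 1, 2 and 3 the large-subunit share was 83.3, 77.8 and 79.6% and the small-subunit share 68.4, 60.5 and 68.4%. The ranges of the replicates did not overlap, and the difference was 14.5 ± 3.05 percentage points (SD, n = 3), higher in 3 of 3 replicates (exact sign-flip permutation test, two-sided, p = 0.25, the smallest possible). The intervals over genes overlapped, however, and the difference was 6.50 points with a window of 100 bp and 6.30 with 1000 bp. Without genes that have a paralogue it was 12.7 points, and in the optimal list 34 of 40 large-subunit genes (85.0%) and 18 of 25 small-subunit genes (72.0%) were then called.

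Among genes with a peak, the subunits differed little in strength. The median percentile was 97.8, 97.3 and 97.7 for large-subunit genes and 97.2, 96.9 and 96.9 for small-subunit genes in replicates 1, 2 and 3. The difference of 0.58 ± 0.217 points (SD, n = 3) had 1 sign in 3 of 3 replicates (exact sign-flip permutation test, two-sided, p = 0.25, the smallest possible). It was 1.39 points with a window of 1000 bp and 0.345 without paralogues, where the lowest replicate gave 0.0283. Over all members, with peaks of any rank and 0 where none was listed, the difference was 5.21 points, an alternative chosen after seeing the data. Median optimal ranks were 760 and 897, and both groups held very strong and weak peaks, from 54 to 3713 and from 48 to 4661.

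Summits at ribosomal protein genes lay close to the start site. Relative to the nearest start site of the gene, the median position was −28 bp (quartiles −66 and −7; negative is upstream), and the extremes were −348 and 34 bp. The other called genes had a median of −101 bp (quartiles −197 and −33). Within 100 bp of the start site lay 62 of 69 member summits (89.9%), against 44.3% for the other called genes, and within 50 bp lay 43 (62.3%), against 22.6%. Upstream of the start site lay 56 of 69 (81.2%), against 84.2%. In the replicates' own top 4900 the median was −26, −32 and −40 bp for members, or −32.7 ± 7.02 (SD, n = 3), and −102.2 ± 5.97 for other called genes, so that the values of the members and of the others did not overlap. For a called member the summit itself moved by a median of 32 bp between replicates (quartiles 21 and 55), which limits how finely the position can be read. With the Ensembl canonical start site of each gene in place of the nearest one, the medians were −46 and −102 bp. The 3124 other called genes had 2259 other promoter peaks, so a peak could count for several genes, including those farther from its summit. Of these 2259 peaks, 1231 had the summit within 100 bp of a start site. With each summit given to its nearest protein-coding gene only, the medians were −24.5 and −73 bp. The gap was then smaller, with the members still closer to the start site.

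**Figure D3:**
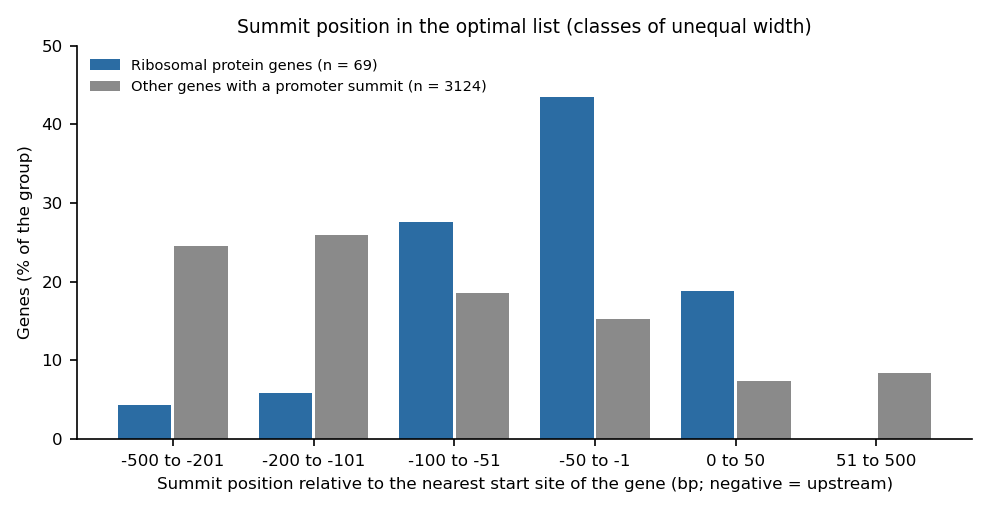
Position of the optimal summit relative to the nearest start site of the gene (x axis, bp in classes of unequal width, negative upstream) as a share of genes in % (y axis), for the 69 called ribosomal protein genes and the 3124 other called genes. The class from −50 to −1 bp holds 43.5% of ribosomal protein genes and 15.2% of the others, and no ribosomal protein summit lies beyond 50 bp downstream.

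Mitochondrial ribosomal protein genes had a median summit position of −138 bp, and proteasome and translation factor genes had −54.5 and −54 bp. Large-subunit summits had a median of −38.5 bp and small-subunit summits of −27 bp, with quartiles that overlapped (−70.25 to −6.5 and −52 to −7 bp). By annotation 47 summits lay upstream of the gene, 21 in its 5′ UTR and 1, at RpL35, in an intron. None of the 92 genes had an optimal summit in its body more than 500 bp from a start site.

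For 63 of 69 called members no other protein-coding start site was nearer to the summit. Among the exceptions were RpL13 (nearest to Dref, which encodes DREF), RpL23 (CG13531), RpL32 (CG7943), RpL7-like (JhI-21) and RpLP0-like (14-3-3zeta). The peak of RpL32 at rank 86 therefore lay 174 bp before RpL32 and nearer to its neighbour, and which gene the binding belongs to cannot be told from a peak list. At the edge of the 500 bp window, RpL23 and RpL7-like lay farthest inside, at −348 and −327 bp. For RpL23 this was the stronger of 2 optimal promoter summits, and the other, at rank 677, lay 144 bp from its start site. Just outside were RpS28a, RpS6, RpS15 and RpS19b, with the nearest optimal summit 510, 531, 550 and 913 bp away.

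The GAGAG pentamer was less frequent at these summits than at other bound promoters. Within 100 bp of the summit it was found at 8 of 69 member peaks (11.6%, exact 95% interval 5.14 to 21.6) and at 737 of 2259 other called promoter peaks (32.6%, 30.7 to 34.6). In replicates 1, 2 and 3 the member share was 8.45, 9.23 and 11.6%, or 9.76% ± 1.64 (SD, n = 3), and the share of the others 32.2% ± 0.631. The values did not overlap, although most peaks are shared between replicates, which makes these spreads small in part by construction. Other promoter peaks with the summit within 100 bp of a start site held GAGAG in 30.0% of cases, and those above the middle of the optimal list in 31.2%, both compared after seeing the data. GAGAGAG was found at 1 member peak, that of RpL7-like, and at 12.1% of the others. Mean GC content within 100 bp of the summit was 42.7% ± 5.69 for member peaks and 40.4% ± 8.09 for the others (SD over peaks).

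The 8 member peaks with GAGAG included those of RpS15Aa, RpS5a, RpL4, RpL7A, RpL7-like and RpL29. Their median optimal rank was 1692 (583 to 3917), against 781 for the 61 member peaks without it. None of the 28 member peaks stronger than that of RpS15Aa thus held GAGAG within 100 bp of its summit, and the printed RpL23A, RpL34b and RpL14 promoters are among these. The rank order rests on 8 peaks and on this search around the summit. Scored in the promoter windows described below, called members with GAGAG had a median rank of 793.5 and those without it 808.

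DRE and motif 1 showed the opposite order. The DRE was found within 100 bp of 20 of 69 member summits (29.0%, exact 95% interval 18.7 to 41.2) and at 8.37% of other called promoter peaks (11.8% of those with the summit within 100 bp of a start site). In the replicates the shares were 28.3% ± 0.654 and 8.02% ± 0.387 (SD, n = 3). The motif 1 core was found at 9 member summits (13.0%, 6.14 to 23.3) and at 5.36% of the others (7.55% of those near a start site), with replicate shares of 12.2% ± 0.892 and 4.93% ± 0.553. For motif 1 the interval of the members overlapped that of all other promoter peaks (4.46 to 6.37) and that of those near a start site. Only RpL27 held both, and 28 member peaks held at least 1 of them (40.6%, against 13.1% of the others). Relative to the start site, the DRE letters stood at a median of −54.5 bp and the motif 1 core at −14.5 bp.

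Of the 69 member peaks 35 (50.7%) held none of GAGAG, DRE and motif 1 within 100 bp, against 56.6% of the others. RpS27, RpL23A, RpL32, RpL34b, RpL14 and RpS20 were among them. Peaks with a DRE had a median rank of 872.5 and those without one of 739, and peaks with motif 1 had 716 against 828.5. Neither shift was as large as that of the few peaks with GAGAG within 100 bp of the summit. A match of letters is a description of the sequence and not evidence of a factor at the site.

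**Figure D4:**
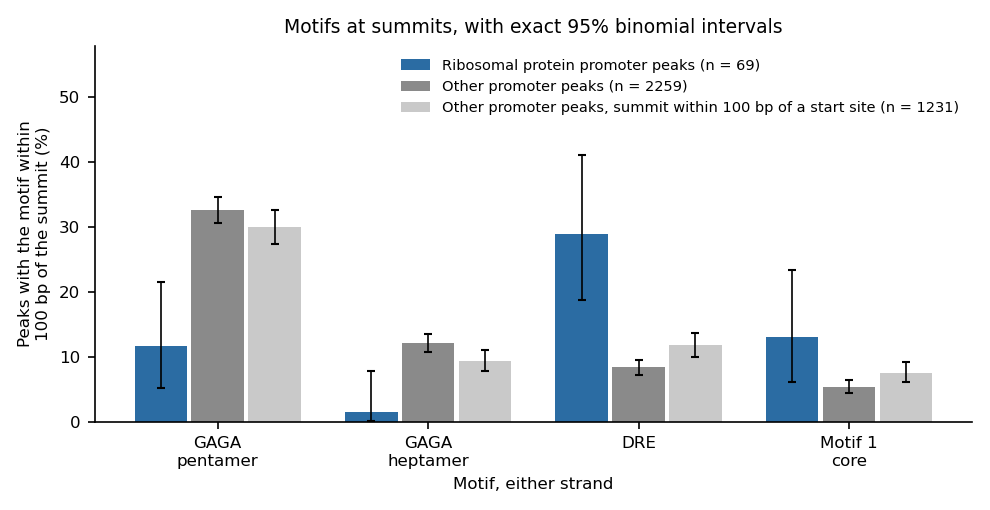
Share of promoter peaks in % (y axis) with the GAGA pentamer, the GAGA heptamer, the DRE or the motif 1 core within 100 bp of the summit, on either strand. Bars are the 69 ribosomal protein peaks, 2259 other promoter peaks and the 1231 of these with the summit within 100 bp of a start site, with exact 95% binomial intervals; the pentamer stands at 11.6, 32.6 and 30.0%.

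The same order appeared in promoter windows placed on the annotation, from 250 bases before to 50 after the canonical start site, which do not depend on peaks. GAGAG was found in 17.4% of the 92 member promoters and in 30.2% of all promoters, the DRE in 30.4 and 8.94%, and motif 1 in 14.1 and 7.54%. CTTTC or CTTTT on the gene's strand began within 2 bases of the canonical start site in 17 members (18.5%) and in 1.43% of all promoters. With a reach of 20 bases around any start site, chosen after seeing the data, 83 members (90.2%) and 17.7% of all genes had these letters. Of those 83 members 66 were called (79.5%), and of the 9 without the letters 3 (33.3%). Over all genes 2470 had the letters and 773 of them were called, where the share of all genes called was 22.9%. Among the 9 were the paralogue copies RpL10Aa, RpL24-like, RpLP0-like, RpS10a, RpS15Ab, RpS19b and RpS28-like. This split therefore overlaps the split by paralogues given below. Among members, GAGAG was in the promoter window of 16, of which 14 were called (87.5%), and 55 of the 76 others were called (72.4%). Over all genes 4211 held GAGAG in this window and 1087 of them were called.

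Paralogues divided the members. Removing a final a, b, -1, -2 or -like from the symbols gave 13 shared stems with 27 members, of which 17 were called (63.0%), whereas 52 of 65 genes with a stem of their own were called (80.0%). Of 15 pairs, 10 had 1 called member, 4 had both and 1 (RpS28-like and RpS28a) had neither. For 9 of the 13 stems 1 copy alone was called. Promoter windows of the copies were no more than 55.3% identical, and 36-base words within 250 bp of the start sites were unique in the genome in 100% of positions, except at RpS14b (85.3%) and RpS15Ab (89.7%) among these genes.

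In 3 stems a copy had no promoter peak in any replicate. RpL37-1 ranked 1200, 1803 and 977 in replicates 1, 2 and 3, and RpL37-2 had no peak. RpL10Ab ranked 2057, 2960 and 2286, and RpL10Aa, whose promoter is printed above, had no peak. RpS28b ranked 300, 791 and 699, RpS28a ranked 4102, 8009 and 5373, and RpS28-like had no peak. In these 3 stems the order of the copies was the same in every replicate.

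RpL22 ranked 448, 353 and 505, while RpL22-like, a copy known for its expression in the testis, had a peak in replicate 1 alone, at rank 24717. RpL24 ranked 170, 213 and 321, and RpL24-like, whose yeast counterpart is a factor of ribosome assembly, ranked 8176 and 26458 in replicates 1 and 2 and had no peak in replicate 3. RpS19a ranked 2334, 1918 and 1882, and RpS19b, known from the germ line, had no peak in replicate 1 and ranked 16884 and 18107 in the others. The called copy was the stronger in each replicate of all 3 pairs. Calls rest on a list made from all 3 replicates. In stems where 1 copy alone was called, the order of the copies is therefore in part fixed by the call.

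RpS5a ranked 694, 654 and 722, and RpS5b, known from the female germ line, ranked 6433, 9193 and 6573. RpS10b ranked 863, 919 and 1113, and RpS10a ranked 7243, 11827 and 10297. RpS15Aa ranked 475, 870 and 704, and RpS15Ab, whose coding sequence is 98.2% identical to it, had no peak in replicate 1 and ranked 12394 and 2995 in the others. The replicate ranks of the copies did not overlap in any of these 3 pairs, although RpS15Ab varied over most of the list.

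In 4 pairs both copies were called. RpL34b ranked 99, 115 and 102 and RpL34a 1163, 754 and 696. RpL7 ranked 45, 71 and 55 and RpL7-like 2628, 1512 and 2251. RpLP0 ranked 226, 314 and 353 and RpLP0-like 720, 3410 and 630. The ranks of the copies did not overlap in any of the 3, and the RpL7-like and RpLP0-like summits were nearer to another gene. RpS14b ranked 1299, 1812 and 1462 and RpS14a 3239, 5448 and 4210. These copies lie 1156 bp apart on X with 97.8% identical coding sequence, so reads in their shared stretches may not be assigned to one of them with certainty.

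**Figure D5:**
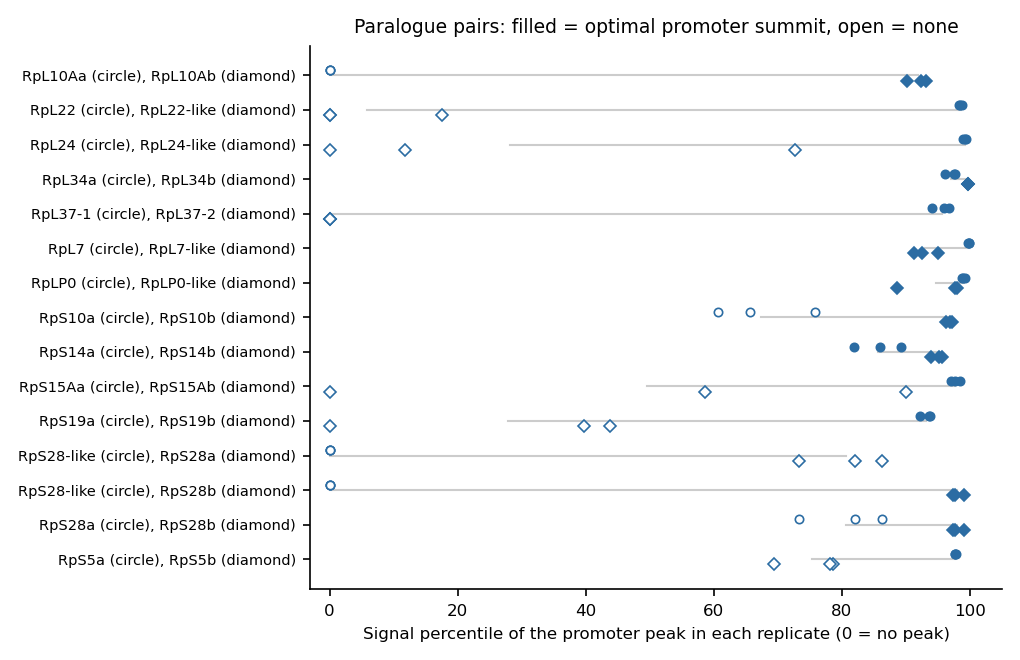
Signal percentile (x axis) of the promoter peak of both copies of 15 paralogue pairs (y axis), with 3 symbols per gene for the replicates, circles for the first and diamonds for the second named copy, and 0 for no peak. Filled symbols are genes with an optimal promoter summit; in 10 pairs 1 copy is filled and in 4 pairs both are.

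The 23 members without an optimal promoter summit were not all without signal. A pooled promoter peak was present at 16 of them, 11 had a promoter peak in all 3 full replicate lists, and RpL10Aa, RpL37-2 and RpS28-like had none in any. Within the top 4900 of a replicate, RpL10 appeared in 2 replicates and 5 genes in 1, among them RpS15Ab, RpS28a, RpS6 and RpS9. RpL10 ranked 3483, 2981 and 10176 with no pooled promoter peak, RpS9 ranked 5909, 3737 and 14970, and RpS6, the target of S6 kinase, ranked 6482, 5626 and 4142. In the pooled list RpS28a and RpS6 lay near the limit of 4900, at ranks 4969 and 5404, and RpS9 and RpS15Ab farther from it, at 7373 and 9355.

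RpL5, which carries 5S RNA into the large subunit, ranked 5211, 6063 and 14946 and RpS15 6839, 8236 and 5300. RpL6 ranked 21821, 11150 and 13999 and RpL15 6166, 17313 and 20442. RpS3, RpS13, RpL40 (made as a fusion with ubiquitin) and RpL21 had peaks in replicates 1 and 2 only, with ranks of 9649 and 13013, 12313 and 18614, 12182 and 16751, and 19548 and 15814. RpS24 ranked 7165 and 10679 in replicates 1 and 3. All of these were below the top 4900 in every replicate. RpL15, RpL5, RpL10 and RpL21 had their nearest optimal summit 4388375, 414693, 216591 and 125876 bp away, so these 4 lie in long stretches without optimal peaks, and 36-base words near their start sites were unique in 100% of positions.

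Genes with a divergent protein-coding start site within 500 bp upstream were called in 31 of 36 cases (86.1%) with a median rank of 497, and the other members in 38 of 56 (67.9%) with a median rank of 990. Over all genes the shares were 42.9 and 15.4%. Members with more than 1 annotated start site were called in 39 of 44 cases (88.6%) and those with 1 in 30 of 48 (62.5%), where all genes gave 38.0 and 17.5%. More start sites widen the searched sequence, so the order is in part fixed by the search. In both splits the members lay above all genes of the same kind.

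Ribosomal protein genes are known to carry small nucleolar RNAs (snoRNAs, guides of RNA modification) in their introns. Within their start and end and on the same strand, 28 members held 74 of the 269 annotated snoRNA genes. Whether each lay in an intron was not tested. Of these 28 hosts 23 were called (82.1%), against 46 of 64 members without a snoRNA (71.9%) and 51 of 84 protein-coding host genes of any kind (60.7%), of which the members are a part. RpS5a, which held 14 snoRNAs, ranked 678. By arm, 13 of 14 members on X were called (92.9%, against 21.9% of all genes on X), and 65.2 to 78.6% of those on 2L, 2R, 3L and 3R, while the single member on the fourth chromosome, RpS3A, ranked 809.

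Of 22 further genes of ribosome production and its control 21 were found in the annotation and 13 were called (61.9%, against 22.9% of all protein-coding genes). The remaining small-subunit proteins named outside the RpS series were both called, sta at rank 1805 (replicate ranks 1640, 2748 and 1839) and Rack1 at rank 954 (639, 1162 and 948), with summits 16 and 12 bp upstream of the start site (positions −16 and −12). Among the promoter factors, Dref shared the RpL13 peak at rank 497, M1BP had rank 3212 with the summit nearest to CG8202, and Trf2 had rank 4457, whereas Tbp was not called. The growth regulators Myc and Mnt had ranks 2024 and 1882, Max was not called, and pzg had rank 1066 with the summit nearest to CG12974.

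Of the nucleolar genes, Fib (rank 1869), NHP2 (3851) and Ns1 (2990, summit nearest to mRpS11) were called, and Nop56, nop5 and Nop60B were not. mTor (878, summit nearest to Vha68-1) and Thor (530), which act in the control of translation by nutrients, were called, and S6k, Tif-IA and Polr1A were not. Of the 13 called genes of this list, Thor, Rack1, sta, Dref, Myc and Fib had the summit within 50 bp of the start site, as did Trf2.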

How the data were processed

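GAGA factor ChIP-seq was measured in 3 biological replicates of whole embryos, with chromatin sonicated to 200 to 800 bp per the labels. Peak lists on dm6 were used: 1 list per replicate, a pooled list and the optimal list, which holds the 4900 strongest of the 30000 pooled peaks. Per the deposited text notes, the optimal list was thresholded by IDR and the others were its input. The signal value of each peak and its summit are the authors' deposited values. The caller and aligner were not stated in the sources used here, and read depth is unknown. The control IP and the dm3 lists were not used here, the latter because the gene annotation (Ensembl release 115) is on dm6.

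Summits within 500 bp of a start site were assigned to genes, and the strongest was kept. The members and lists were chosen with earlier results of these data known, so no list test was made. Replicate values came from the top 4900 of each replicate list. Binomial intervals are exact (Clopper-Pearson, 95%), and differences were tested by an exact two-sided sign-flip permutation over replicates. The text names the 8 strongest members of each subunit, the 3 weakest called ones, all uncalled ones, all paralogues, those at the window's edges and the genes of a ribosome-related list, though some of these are not reported here. Motifs were counted on either strand, up to 100 bp from the summit. Alternatives were other windows, start sites, list depths and replicates left out. Scripts used Python 3.11.15, numpy 2.4.6, pandas 2.3.3, scipy 1.17.1 and Biopython 1.88 and were tested on simulated data.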

Additional observations from a re-analysis of the deposited data

How the results depend on the processing

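None of 55 alternatives reversed a result. For the 3 differences between groups this covers direction and side of the threshold only, since p could not go below 0.25, and their size moved by more than 1.5 times in several cases. The subunit difference in share was 6.50 points at a window of 100 bp and 6.30 at 1000 bp, the subunit difference in percentile was 1.39 at 1000 bp, 0.368 in the stronger part of each replicate's top list (above its middle) and 0.345 without paralogues, and the percentile difference from other called genes was 1.57 in that stronger part. Of the counts and positions, 5 moved. The number of called members ran from 57 (the stronger part of the optimal list, above its middle) to 85 (all pooled peaks), with 62 at a window of 100 bp, where 11.3% of all genes were called. The median summit position moved from −28 to −46 bp with canonical start sites and to −40 bp in replicate 3 alone. The number of member peaks with GAGAG was 3 within 50 bp and 25 within 250 bp (19.6 and 53.1% for the others), and with GAGAGAG 2 within 250 bp. Leaving out each replicate in turn gave a mean called share of 72.8 to 76.1%, a subunit difference of 13.1 to 16.1 percentage points in share and 0.465 to 0.68 points in percentile, and a percentile difference from other called genes of 4.26 to 4.51. The subunit difference in share was 19.5 points in the same stronger part of each replicate's top list. Of the alternatives chosen after seeing the data, dropping uncalled paralogues gave a subunit difference of 10.6 points, giving genes without a peak a percentile of 0 raised the percentile difference to 5.21, and dropping summits nearer to another gene gave a median position of −22 bp. No paired analysis was possible because the samples form 1 group. Peak lists without read totals leave the depth unknown, so a missing peak means only that none was listed.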

Other observations

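Every word of 8 bases was counted within 100 bp of the 69 ribosomal protein summits and of the 2259 other promoter summits, and the 12 with the largest difference in share were listed. They were chosen by their values, so no test applies. The groups were not matched for position. Within 100 bp of a start site lay 62 of the 69 member summits and 1231 of the 2259 others. AAAGAAAG (CTTTCTTT on the other strand) led, at 20 member peaks (29.0%) and 1.95% of the others, followed by AAAAGAAA with 30.4 and 5.49%. These words hold the letters of the TCT initiator. Apart from the DRE and words overlapping it, the list held CGGAAACG with 14 member peaks (20.3%) against 10 others (0.443%), ACCGGAAA with 13 (18.8%) against 21 (0.93%) and AAATACCA with 13 (18.8%) against 72 (3.19%). CCGGAAAC, which overlaps the first 2 of these, stood at 12 (17.4%) against 10. AAAGAAGG, which holds neither CTTTC nor CTTTT on either strand, stood at 12 (17.4%) against 16 (0.708%).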
